A study of Glycine max with 6 samples.

Results

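Soybean proteins GLYMA.06G314400 and GLYMA.13G317000 shared many binding sites in embryos, and part of these sites lay in runs, that is, 3 or more sites in a row with short gaps between them. A site is here a locus, made by merging all peaks that overlap by 1 bp or more, where a peak is a stretch of genome enriched in the precipitated DNA. Loci with a peak in all 4 lists (both replicates of both proteins) on the 20 chromosomes were kept, and a run is 3 or more consecutive kept loci with gaps of 3000 bp or less. This rule found 5087 loci in 1507 runs, out of 33932 kept loci and 70952 loci in all. Runs thus held 15.0% of kept loci (95% Wilson interval 14.6% to 15.4%, counting error only) and 7.17% of all loci. Members were thus chosen by the measured position of the peaks and by their presence in each list. Both are given as descriptions, and since height, width and summits come from the same lists, they are given without a test as well.

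Embryos of the cultivar Williams 82 at early maturation were dissected from seeds 6 to 7 mm long. Chromatin immunoprecipitation with sequencing (ChIP-seq), which recovers DNA crosslinked to a protein by means of an antibody, was done on chromatin fixed with 1% formaldehyde and broken into pieces of 100 to 500 bp. The samples were 2 biological replicates with 3 µg of an antibody to residues 302 to 316 of GLYMA.06G314400, 2 with 2 µg of an antibody to residues 1 to 15 of GLYMA.13G317000, and 2 of input, which is chromatin without precipitation. No genetic change or treatment of the plants is named in the labels of the 6 samples, and the antibodies' specificity was not given in the sources used here. The input samples have no list of their own here. The labels do not say whether the biological replicates came from separate plants, so an SD over them measures only the spread between these samples, which may be technical.

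Proteins that bind DNA often occupy several places around one gene, in its promoter, within its introns or downstream of it. Where genes are closely spaced, the sites of neighbouring genes also come to lie side by side. In seeds, early maturation is the time when the embryo turns from cell division to filling its cells with storage protein and oil. Which genes lie at the runs was not analysed here, since no genome or annotation of the peaks' build was used, and for the same reason no sequence of a run is shown.

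GLYMA.06G314400 had 60812 and 53281 peaks in replicates 1 and 2, and GLYMA.13G317000 had 58036 and 41859. All lists reached down to a q near 0.01, with a lowest −log10 q of 2.00, 2.23, 2.02 and 2.15 in the same order. The read depth, and the control behind each list, were not given in the sources used here. A kept locus is simply one that was called 4 times. A locus without a call in some list may still be bound. Whether lists share a control was not tested.

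Most kept loci stood alone. A total of 19835 (58.5%) had no kept neighbour within 3000 bp, and 9010 (26.6%) lay in pairs, of which there were 4505. The remaining 5087 formed the runs. Runs of 3 loci were the most frequent, with 1095 of the 1507 (72.7%). There were 306 runs of 4 loci (20.3%), 73 of 5, 21 of 6, 9 of 7 and 3 of 8.

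Runs were short stretches of DNA. Their span had a median of 5583 bp (quartiles 4469.5 and 6857.5 bp) and ranged from 2139 to 17059 bp. By size, the median span was 5103 bp for 3 loci, 7110 bp for 4, 9601 bp for 5 and 15200 bp for 8. The loci themselves covered a median of 46.1% of a run, from 22.9% to 93.4%, the rest being gaps. Together the runs spanned 8.90 Mb, which is 0.938% of the length of the chromosomes taken up to their last peak. Within that span there were 572 kept loci per Mb, against 35.8 per Mb along the whole chromosomes, a contrast that the rule creates.

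Gaps inside runs tended to be short within the permitted range. The 3580 gaps had a median of 1213 bp (quartiles 619 and 1994 bp), and 1504 of them (42.01%) were 1000 bp or less. In 232 runs (15.4%) every gap was 1000 bp or less. Very small gaps were few, with 72 (2.01%) of 100 bp or less. From summit to next summit, averaged over the lists, the median distance was 2048 bp (quartiles 1410 and 2832 bp). Between all consecutive kept loci the median gap was 9316 bp, and 23.8% of the 33912 gaps were 3000 bp or less.

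**Figure D1:**
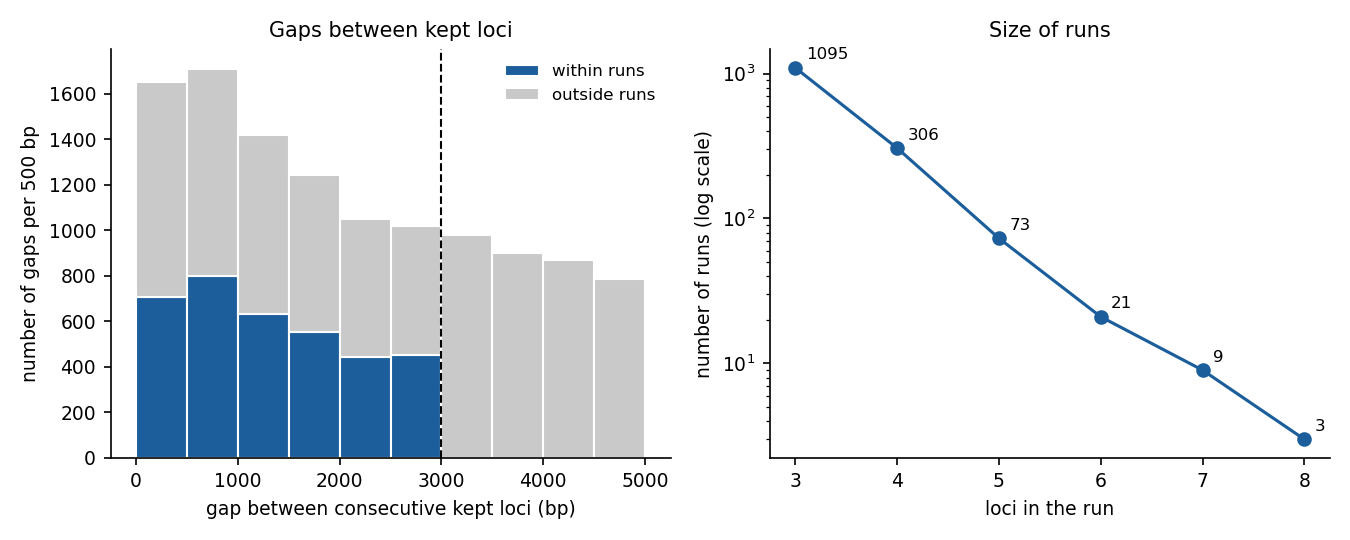
Left, gaps between consecutive kept loci up to 5000 bp, counted per 500 bp (blue, within runs; grey, outside runs; dashed line, the limit of 3000 bp). Right, number of runs by number of loci, on a log scale. Among all gaps, each step beyond 1000 bp held fewer than the one before, on both sides of the limit, and there were 1095 runs of 3 loci and 3 of 8 loci.

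The limit of 3000 bp did not fall into a natural break. In steps of 500 bp, gaps ending at 1000 bp were the most frequent (1710), those ending at 3000 bp numbered 1017 and those ending at 3500 bp 981. Just inside the limit was a run of 3 loci on chromosome 11 with a gap of 3000 bp, between loci at 6647609-6649698 and 6652699-6653243. Another run of 3 on chromosome 11 had a gap of 2997 bp, from 8042400 to 8045398. Just outside were gaps of 3003 bp on chromosome 4, between loci at 1596297-1597412 and 1600416-1600898, and on chromosome 17, between 4455489-4456326 and 4459330-4459872, each of which would have closed a run of 3. The locus before the excluded gap on chromosome 17 had fold enrichments of 21.01, 21.6, 10.8 and 6.95 and the one after it 5.82, 5.15, 5.57 and 3.06, in the list order used throughout: replicates 1 and 2 of GLYMA.06G314400, then replicates 1 and 2 of GLYMA.13G317000. Fold enrichment is the authors' value for a peak's summit over its local background, and where a list has several peaks in a locus the highest was taken.

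The 3 runs of 8 loci lay on chromosomes 15, 20 and 16. That on chromosome 15 ran from 12931247 to 12947455, a span of 16209 bp, with gaps of 259 to 2966 bp and 45.1% of its length covered. Its 6th locus, at 12941053-12942870, was the strongest in all 4 lists, with fold enrichments of 25.5 and 31.5 in the GLYMA.06G314400 lists and 20.3 and 12.5 in the GLYMA.13G317000 lists. The 2nd locus, at 12932668-12934051, had 17.4 and 14.6 in the GLYMA.06G314400 lists and 19.4 and 8.86 in the GLYMA.13G317000 lists. In replicate 1 of GLYMA.13G317000 the 2nd locus came within 1 unit of the 6th. It was clearly lower than the 6th in replicate 2 of that protein (8.86 against 12.5) and in both GLYMA.06G314400 lists. The 8th locus, at 12946786-12947455, had 17.2, 19.9, 13.2 and 7.27 in the list order. The other 5 loci, at 12931247-12931755, 12934526-12935238, 12936425-12936942, 12937202-12938086 and 12944285-12945103, were weaker, with 6.47 to 12.3 in the GLYMA.06G314400 lists and 3.76 to 9.49 in the GLYMA.13G317000 lists.

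On chromosome 20 the run from 38295662 to 38310861 spanned 15200 bp, and its strongest locus was the first. That locus, at 38295662-38297818, had fold enrichments of 27.8 and 38.5 in the GLYMA.06G314400 lists and 20.2 and 21.2 in the GLYMA.13G317000 lists. Strong and weak loci lay in mixed order along it. The 4th locus, at 38303508-38304279, had 17.5, 18.7, 13.01 and 11.4, the 6th, at 38306578-38307412, had 20.7, 25.5, 14.7 and 10.4, and the 7th, at 38309238-38309918, had 15.6, 25.1, 13.6 and 10.3. Between and beside them, the loci at 38302316-38302860, 38305616-38306425 and 38310020-38310861 had 5.46 to 6.47 in the GLYMA.06G314400 lists and 3.15 to 5.72 in the GLYMA.13G317000 lists. The 2nd locus, at 38299076-38299701, was intermediate with GLYMA.06G314400 (9.29 and 14.6) and had 5.57 and 6.99 with GLYMA.13G317000. From edge to edge, the gap was 152 bp between the 5th and 6th locus and 101 bp between the 7th and 8th. The summits lay further apart than these gaps in every list. In each of these pairs one locus had at least 2.37 times the fold enrichment of the other in every list.

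The run on chromosome 16, from 1216906 to 1231455 (14550 bp), had no common strongest locus. Its 4th locus, at 1220872-1222086, led in replicate 1 of both proteins, where GLYMA.06G314400 reached 19.7 and GLYMA.13G317000 12.4. The 3rd, at 1219070-1220143, led in replicate 2 of GLYMA.06G314400 with 17.7, and the 1st, at 1216906-1217468, in replicate 2 of GLYMA.13G317000 with 12.4. At the 1st locus all lists lay between 10.5 and 13.9. The 2nd locus, at 1217940-1218553, had 9.85, 11.3, 7.56 and 5.42 in the list order. The last 4 loci, from 1222980-1224689 to 1230907-1231455, were the weaker part of the run, with 4.76 to 10.03 in the GLYMA.06G314400 lists and 3.40 to 7.61 in the GLYMA.13G317000 lists.

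**Figure D2:**
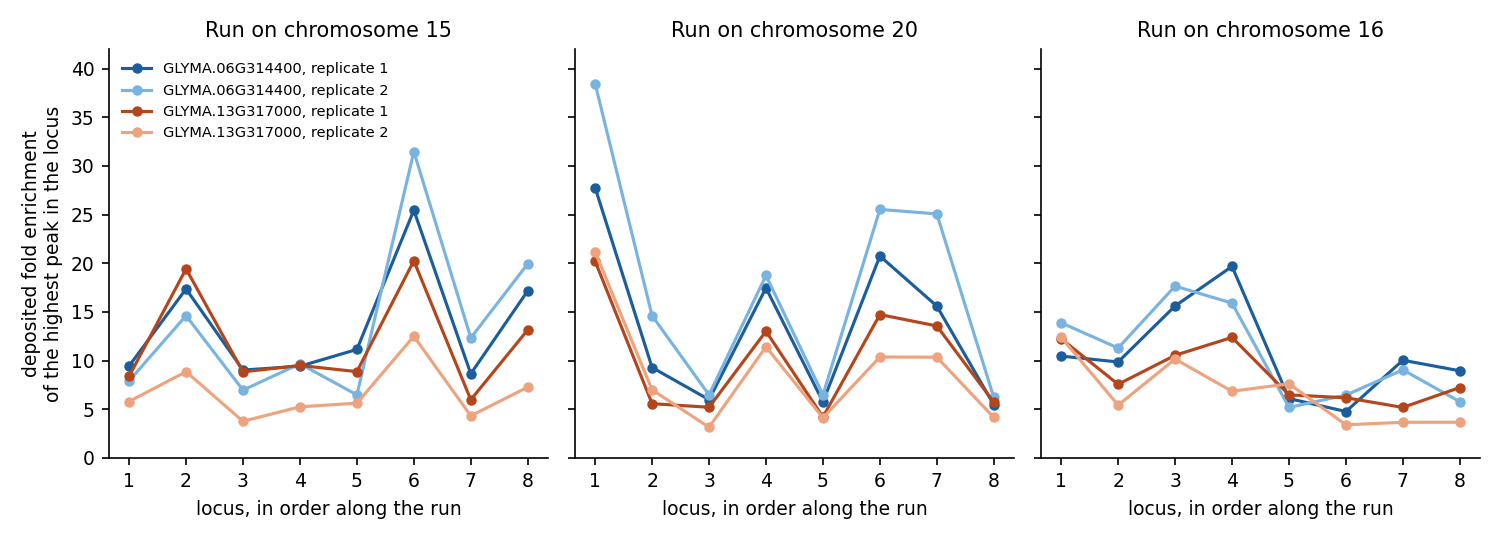
Deposited fold enrichment (vertical axis) of each locus, in order along the run, for the runs of 8 loci on chromosomes 15, 20 and 16. Each line is one list. On chromosomes 15 and 20 the 4 lines peak at the same locus (the 6th and the 1st), and on chromosome 16 they peak at 3 different loci.

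Further large runs had 7 loci. On chromosome 1 the run from 704840 to 721898 was the longest of all, at 17059 bp. Its first locus, at 704840-705630, had 28.4 and 33.2 in the GLYMA.06G314400 lists and 21.4 and 13.5 in the GLYMA.13G317000 lists, and its last, at 720673-721898, had 17.3, 22.1, 13.5 and 9.68 in the list order. The run on chromosome 4 from 5015768 to 5032239 had a pair of strong loci, the 1st and the 6th. Its first locus, at 5015768-5016670, had 27.5 and 33.1 in the GLYMA.06G314400 lists and 23.5 and 19.0 in the GLYMA.13G317000 lists, and its last, at 5031779-5032239, had 6.06, 6.03, 3.98 and 3.66. The 6th, at 5028069-5029128 and picked with its values known, had 28.7 and 34.1 in the GLYMA.06G314400 lists, slightly more than the 1st, and 21.2 and 17.3 in the GLYMA.13G317000 lists, slightly less. The 1st and 2nd loci there were 10 bp apart, the smallest gap in any run. On chromosome 11 the run from 1325820 to 1341475 began with a weak locus, at 1325820-1326331, with 4.44, 5.70, 3.93 and 3.23, and ended with one at 1340249-1341475 with 12.8, 17.6, 10.1 and 7.94. The run on chromosome 13 from 34666342 to 34681995 began at 13.7, 6.00, 10.0 and 3.45 and ended at 24.8, 25.3, 15.9 and 11.2. Its first locus was higher in replicate 1 than in replicate 2 of both proteins.

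Runs of long span did not need many loci. On chromosome 10 the run from 1234826 to 1250440 spanned 15615 bp with 5 loci, the first at 1234826-1235647 with 5.40, 5.66, 3.93 and 3.605. Its last locus, at 1249563-1250440, had 35.8 and 54.7 in the GLYMA.06G314400 lists and 27.7 and 27.3 in the GLYMA.13G317000 lists, at a percentile rank of 98.5 or more in each list. On chromosome 20 the run from 37104724 to 37119950 spanned 15227 bp with 6 loci. Its first locus had 6.66, 8.53, 5.64 and 3.47, and its last, at 37118167-37119950, had 24.0, 21.5, 17.2 and 11.9.

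The runs with the strongest weakest locus held loci that were high throughout. The 4 loci on chromosome 19 from 49797716 to 49806813 had 22.9 to 45.1 and 30.5 to 48.5 in replicates 1 and 2 of GLYMA.06G314400, and 17.7 to 41.9 and 13.02 to 26.1 in replicates 1 and 2 of GLYMA.13G317000. The 3 loci of a run on chromosome 6 from 5945993 to 5951950 covered 78.7% of the span. The first, at 5945993-5947192, had 15.9, 17.5, 14.8 and 12.9, and the last, at 5950824-5951950, had 35.7, 40.9, 29.5 and 19.6. The 3 loci on chromosome 12 from 8998897 to 9003076 were close to one another in height, with a mean over the lists of 14.4 at the weakest and 18.6 at the strongest.

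At the other end stood a run on chromosome 13 from 24532792 to 24538586, with a first locus of 3.73, 3.93, 3.26 and 2.05 and a last of 10.03, 12.3, 6.30 and 4.31. The value of 2.05 was the lowest of any locus in a run in replicate 2 of GLYMA.13G317000. A run of 5 on chromosome 10 from 40677493 to 40684790 held a locus with 3.04, 4.17, 2.11 and 4.21. Its 2.11 was the lowest of any locus in a run in replicate 1 of GLYMA.13G317000. Contrast within a run was greatest on chromosomes 18 and 11. On chromosome 18, between 967091 and 971926, the 3rd locus had a mean of 40.6 and the 1st one of 3.99, a ratio of 10.2. On chromosome 11, between 2852518 and 2863031, the 1st locus had 46.7 and 70.4 in the GLYMA.06G314400 lists and 46.1 and 34.8 in the GLYMA.13G317000 lists, and the 3rd had 5.63, 4.52, 5.25 and 4.15.

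As a group, loci in runs were about as strong as other kept loci. Their median fold enrichments were 10.5 and 11.03 in the GLYMA.06G314400 lists and 8.69 and 6.05 in the GLYMA.13G317000 lists, against 10.2 and 10.6, and 8.35 and 5.86, in the 28845 other kept loci. As percentile ranks within each list, medians in runs were 72.6 and 68.6 in the GLYMA.06G314400 lists and 71.6 and 58.0 in the GLYMA.13G317000 lists, against 71.6, 67.2, 69.8 and 55.9 for other kept loci. The difference was positive in 4 of 4 lists and small, with a mean of 1.55 percentile points (SD 0.433 over the 4 lists, range 1.05 to 2.04). It was 0.581 points without replicate 2 of GLYMA.13G317000 and 0.129 without replicate 2 of both proteins.

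Strength was also spread within the runs. A fold enrichment of 10 or more in all 4 lists was found at 1129 of 5087 loci in runs (22.2%) and at 5704 of 28845 other kept loci (19.8%), with 20.1% of all kept loci as background. In both GLYMA.06G314400 lists, 48.1% of loci in runs and 46.4% of other kept loci reached 10 (background 46.7%). In both GLYMA.13G317000 lists the shares were 22.4% for loci in runs and 19.98% for other kept loci (background 20.3%). Of all kept loci 6833 reached 10 in all 4 lists and 6904 in both GLYMA.13G317000 lists. The 2 lists of that protein thus nearly set the result for all 4. Replicate 2 was the lower of them, with an upper quartile of 9.60 in loci in runs against 13.4 in replicate 1. By run, 838 (55.6%) held at least 1 locus at 10 or more in all lists, 586 held exactly 1, 669 held none and 12 consisted of such loci throughout. No such count was made for sets of other kept loci, so these numbers show nothing particular to runs. Ordered by the lowest of their 4 fold enrichments, 13.8% of the weakest 10% of kept loci and 17.3% of the strongest 10% lay in runs, with 14.2% to 15.7% in the groups between. Of the 100 strongest kept loci 21 lay in runs, and of the 1000 strongest 168 (16.8%), against 15.0% of all kept loci.

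Run size made little difference to strength. Loci of runs of 3 had median fold enrichments of 10.7, 11.1, 8.67 and 5.99 in the list order, those of runs of 4 had 10.4, 10.98, 8.81 and 6.16, those of runs of 5 had 9.999, 11.03, 8.48 and 6.13, and those of runs of 6 or more had 9.86, 10.6, 8.83 and 6.22. Single kept loci had 10.2, 10.6, 8.31 and 5.83, and those in pairs 10.3, 10.7, 8.42 and 5.90. The medians were lower in larger runs in replicate 1 of GLYMA.06G314400, and in the other lists they did not follow run size in order.

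Neighbours in a run did not resemble each other in height. Across the 3580 neighbouring pairs in runs, Spearman's rho between the fold enrichments of the loci was 0.0061 and 0.00022 in the GLYMA.06G314400 lists and 0.0093 and −0.0066 in the GLYMA.13G317000 lists. These pairs come from the same libraries, and a locus inside a run enters 2 pairs. Pairs with a gap of 500 bp or less (706) gave 0.027, 0.023, 0.017 and 0.0037, and kept loci over 3000 and up to 10000 bp apart (9561 pairs) gave −0.0038, −0.0046, 0.0052 and 0.017. At the median, the higher of a neighbouring pair had 1.86 and 1.92 times the fold enrichment of the lower with GLYMA.06G314400, and 1.73 and 1.68 times with GLYMA.13G317000.

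Most runs mixed stronger and weaker loci. The strongest locus had a median of 3.04 and 3.20 times the fold enrichment of the weakest in the GLYMA.06G314400 lists, and 2.69 and 2.57 times in the GLYMA.13G317000 lists. By the mean over the lists the ratio was 2.80 at the median (quartiles 1.98 and 3.95) and ran from 1.01 to 10.2. On the log2 scale, the SD of fold enrichment was 0.88 within runs and 0.88 over all loci in runs for replicate 1 of GLYMA.06G314400, and 0.93 and 0.94 for its replicate 2. For GLYMA.13G317000 it was 0.79 and 0.80 in replicate 1, and 0.78 and 0.79 in replicate 2. Knowing the run thus said little about the height of a locus.

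The strongest locus was mostly the same one in different lists. In 983 of 1507 runs (65.2%, Wilson interval 62.8% to 67.6%, counting error only) a single locus led in all 4 lists. The share was 66.6% in runs of 3 loci, 61.4% in runs of 4 and 63.0% in runs of 5. The weakest locus was common to all lists in 815 runs (54.1%), and the whole order of loci in 472 (31.3%), of which 429 were runs of 3. Taken in pairs, the replicates of GLYMA.06G314400 had the same leader in 82.3% of runs and those of GLYMA.13G317000 in 79.7%. Lists of different proteins with the same replicate number had 81.7% and 80.7%, and lists differing in both protein and number 75.5% and 78.4%. Agreement between the proteins at the same number thus fell into the range of the replicates, and at different numbers it was lower.

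Agreement on the leader went with the size of its lead. The runs were split into 4 groups of nearly equal size by the ratio of the strongest to the second locus, from the mean fold enrichment over the lists. In the group with ratios up to 1.198 all lists had the same leader in 10.9% of runs, in the next (up to 1.51) in 61.5%, in the next (up to 2.12) in 89.4% and in the last (2.12 to 8.04) in 99.2%. The ratio and the agreement rest on the same values.

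**Figure D3:**
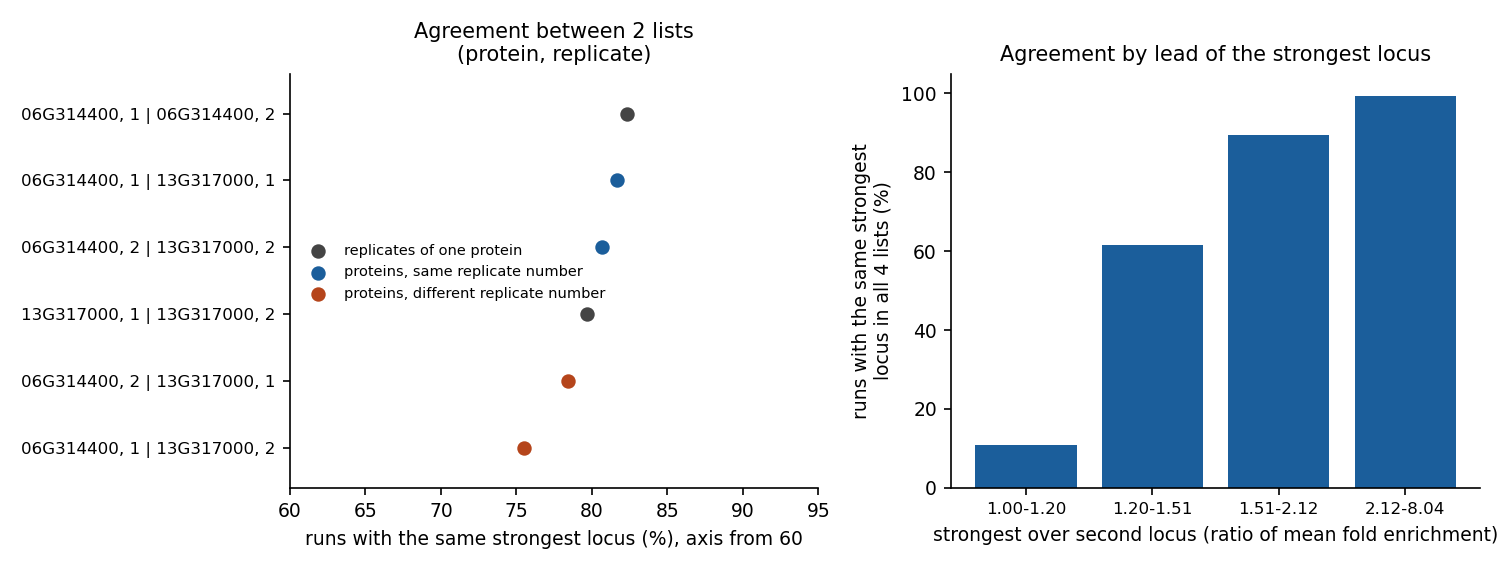
Left, percentage of the 1507 runs in which 2 lists have the same strongest locus, for the 6 pairs of lists (axis from 60%). Right, percentage of runs with the same strongest locus in all 4 lists, in 4 groups by the ratio of the strongest to the second locus. Pairs of lists lie between 75.5% and 82.3%, and the groups between 10.9% and 99.2%.

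Where the lists of each protein agreed on a leader, the proteins seldom had different leaders. Runs whose replicates disagreed are left out of this count. List by list, the proteins had the same leader in 75.5% to 81.7% of all 1507 runs. Both lists of each protein had a common leader in 1052 runs, and in 69 of these (6.56%) the leader of GLYMA.06G314400 differed from that of GLYMA.13G317000. In 6 of the 69 the leader stood at least 1.2 times above the other protein's leader in every list. The largest such contrast, singled out after its values were seen, lay on chromosome 6 in a run of 3. Its first locus, at 2965389-2965975, had 10.5 and 6.71 in the GLYMA.06G314400 lists and 6.12 and 3.25 in the GLYMA.13G317000 lists. The second, at 2966621-2967219, had 6.75 and 5.03 in the GLYMA.06G314400 lists and 8.83 and 6.30 in the GLYMA.13G317000 lists. The smallest of these ratios was 1.33. No run switched by 1.5 times or more in all lists, with 0 of 1507.

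Leading loci showed little preference for a place in runs of 3. Among these 1095 runs, the middle locus led in 35.3% and 35.5% with GLYMA.06G314400 and in 34.7% and 36.1% with GLYMA.13G317000. The first locus led in 31.9%, 30.6%, 32.1% and 30.05% and the last in 32.8%, 33.9%, 33.2% and 33.9%, in the list order. In the 306 runs of 4, the first locus led in 26.8%, 25.8%, 29.4% and 28.1% and the last in 24.8%, 21.9%, 23.9% and 20.6%. In the 73 runs of 5, the last locus led in 30.1% and 34.2% of runs in the GLYMA.06G314400 lists and in 32.9% in each GLYMA.13G317000 list. These shares are 22 to 25 runs. The third led there in 13.7%, 10.96%, 16.4% and 9.59%, which is 7 to 12 runs. The lists do not repeat one another independently, as 46 of these 73 runs had the same leader in all 4 lists. A preference for a place was not tested. First and last follow the numbering of the chromosome and have no biological direction.

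Loci in runs were slightly wider than other kept loci, with a median of 725 bp (quartiles 571 and 945 bp) against 687 bp (546 and 880 bp). The rule measures gaps from the end of a locus to the start of the next, so width itself bears on membership. Within a locus, the DNA covered by the peaks of one list had a median of 709 and 563 bp with GLYMA.06G314400 and 555 and 410 bp with GLYMA.13G317000, against 668, 531, 525 and 394 bp in other kept loci. Several peaks of one list fell into the same locus in 0.511% and 5.33% of loci in runs with GLYMA.06G314400 and in 6.15% and 5.88% with GLYMA.13G317000. In other kept loci these shares were 0.385%, 4.20%, 4.65% and 4.71%. Replicate 1 of GLYMA.06G314400, with the lowest share, also had the widest peaks, at a median of 512 bp against 373 to 436 bp in the other lists.

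Summits of the proteins nearly coincided in runs, as in other kept loci. At the median, summits of both proteins lay 19 bp apart in replicate 1 and 22 bp apart in replicate 2, against 19 and 21 bp in other kept loci. Replicate summits lay 18 bp apart for GLYMA.06G314400 in runs, against 17 bp in other kept loci, and 21 bp apart for GLYMA.13G317000 in runs, against 20 bp. Summits of both proteins over 200 bp apart were seen in 1.99% and 3.16% of loci in runs, against 2.02% and 2.81% of other kept loci.

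The runs were mostly visible in each list by itself. With the peaks of one list only, 1498 of the 1507 runs (99.4%) still held 3 or more consecutive peaks with gaps of 3000 bp or less in replicate 1 of GLYMA.06G314400, and 1441 (95.6%) in its replicate 2. For GLYMA.13G317000 the counts were 1442 (95.7%) and 1349 (89.5%). All lists showed 3 such peaks in 1340 runs (88.9%). Each list has a peak in every locus of a run by the rule, so a run is lost in a list only where its narrower peaks leave gaps over 3000 bp.

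Some runs enclosed further loci that were called in fewer lists. Such loci, 542 in all, lay in 443 runs (29.4%), with at most 3 in one run, while 1064 runs had none. Of the 542, 174 (32.1%) had peaks in 3 lists, against 32.6% of all chromosomal loci called in fewer than 4 lists, and in 152 of these 174 the list without a peak was replicate 2 of GLYMA.13G317000 (87.4%, against 87.7% of all loci with peaks in 3 lists). Where any other locus was taken to end a run, there were 1181 runs with 3892 loci, among them pieces of longer runs.

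Runs lay towards the ends of the chromosomes, more so than other kept loci. Of the runs, the outer 20% at each end (40% of the length together, here the outer parts) held 1149 of 1507 (76.2%, Wilson interval 74.03% to 78.3%). That interval is counting error only and takes runs as independent. By chromosome the share of runs was 77.8% ± 14.0 (SD over 20 chromosomes). By chromosome, 78.1% ± 14.4 of loci in runs were in these outer parts, against 68.2% ± 10.4 of other kept loci (SD over 20 chromosomes). The share was higher for loci in runs on 19 of 20 chromosomes, by 9.89 points on average (SD 7.04). No test is given, since the rule itself rests on position. Of the kept loci in the outer parts 16.8% belonged to a run, and of those in between 11.2%. With each chromosome cut into 10 bins of equal length, this share was 18.1% in the first bin, 7.91% in the sixth and 17.8% in the last. Kept loci themselves numbered 6557 in the first bin, 910 in the sixth and 6743 in the last. Whether the place of runs only follows this density of kept loci was not tested.

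**Figure D4:**
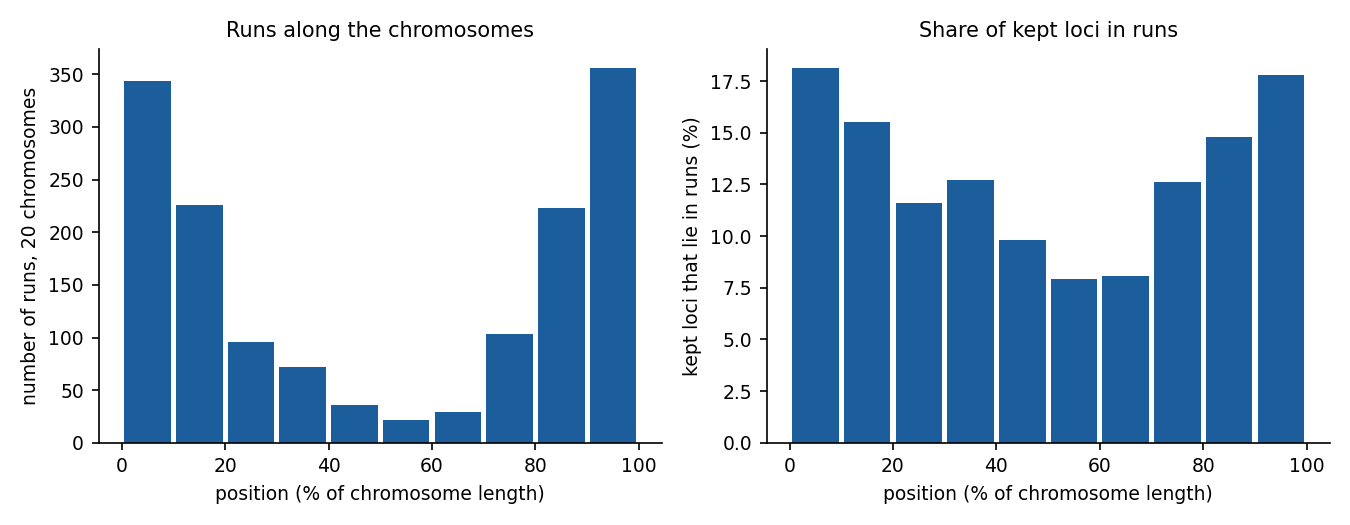
Number of runs (left) and percentage of kept loci that lie in runs (right), in 10 bins of chromosome length, summed over 20 chromosomes. Both are highest in the outermost bins, with 344 and 356 runs and 18.1% and 17.8%, and lowest in the sixth bin, with 22 runs and 7.91%. Kept loci, not drawn, numbered 6557 and 6743 in the outermost bins and 910 in the sixth.

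Chromosomes 13 and 20 differed from the others in where their runs lay. On chromosome 13 only 36.5% of loci in runs were in the outer parts, against 32.7% of other kept loci, and the first 20% of the chromosome held 1 of its 111 runs. On chromosome 20 the share was 50.7% in runs and 64.0% in other kept loci, the one chromosome with the lower share in runs. There, 28 of 65 runs lay between 70% and 80% of the length, including the runs of 8 and of 6 loci described above. Kept loci were not counted for these stretches of chromosomes 13 and 20. The counts of runs there may therefore only follow the number of kept loci, which was not tested. The highest share was on chromosome 4, with 94.1% of loci in runs and 84.6% of other kept loci.

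**Figure D5:**
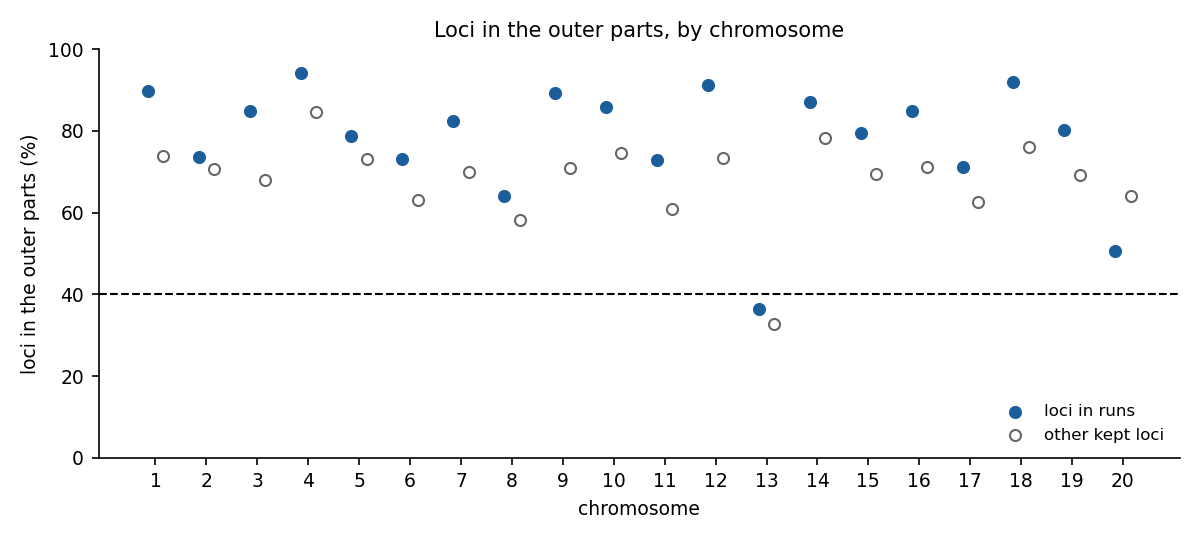
Percentage of loci in the outer parts for loci in runs (blue) and other kept loci (open) on each of 20 chromosomes. The dashed line is the 40% of length that these parts make up. Loci in runs lie higher on all chromosomes except chromosome 20, where they have 50.7% and other kept loci 64.0%.

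Every chromosome had runs, with 75.4 ± 17.3 per chromosome and 1.61 ± 0.411 per Mb (SD over 20 chromosomes). Chromosome 13 was the densest with 2.42 per Mb, followed by chromosome 17 with 2.31 and chromosome 6 with 2.18, and chromosome 16 the sparsest with 0.977. As a share of kept loci, 18.2% belonged to runs on chromosome 6 and 10.8% on chromosome 16, around a mean of 14.9% (SD 1.75). On chromosome 13, which had the most kept loci per Mb (53.96), the share was 14.6%. A high density of kept loci over a whole chromosome therefore did not go with a high share in runs there.

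Locally, runs gathered in some stretches. Consecutive runs were a median of 188946 bp apart (quartiles 68270.5 and 430426 bp), and 50 followed another within 10000 bp, the nearest at 3113 bp. Of 956 windows of 1 Mb, 475 held no run and 70 held 6 or more. The fullest window was on chromosome 6 from 1000001 to 2000000, with 12 runs and 109 kept loci. Next came 11 runs each in a window of chromosome 11 (3000001 to 4000000, 126 kept loci) and one of chromosome 5 (39000001 to 40000000, 102 kept loci). These windows were crowded with kept loci, against 35.8 per Mb along the whole chromosomes. The gathering of runs was therefore not separated from that of kept loci. Apart from its own run, a locus in a run had a median of 7 kept loci within 50000 bp (quartiles 4 and 9), against 6 for loci in pairs (4 and 9) and 6 for single loci (3 and 8). Of kept loci with 3 or fewer such neighbours 10.04% were in runs, of those with 10 to 12 neighbours 18.3%, and of those with 13 or more 14.1%.

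Loci in runs took up 8.41% and 10.1% of the peaks of GLYMA.06G314400 and 9.33% and 12.9% of those of GLYMA.13G317000. GLYMA.06G314400 averaged 9.25% ± 1.19 and GLYMA.13G317000 11.1% ± 2.53 (SD, n = 2 each), a difference of −1.87 points. By the rule every list has a peak in each of the 5087 loci, so the number of peaks in runs was nearly the same in all lists (5113 and 5377 in the GLYMA.06G314400 lists, 5417 and 5403 in the GLYMA.13G317000 lists), and the share follows the length of the list. The shorter list of each protein, replicate 2, gave the higher share. The median percentile rank of loci in runs averaged 70.6 ± 2.86 in the GLYMA.06G314400 lists and 64.8 ± 9.61 in the GLYMA.13G317000 lists (SD, n = 2 each), a difference of 5.85 points. The ranks of other kept loci given above differed between the lists in the same order. The choice of loci called in all lists bears on both differences, and they are given without a test. Without replicate 2 of GLYMA.13G317000 the difference in rank was −0.88 points.

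Of the single lists, one moved the number of runs most when left out. Without replicate 2 of GLYMA.13G317000, the list with the fewest peaks, kept loci needed a peak in the 3 remaining lists, and there were 2885 runs with 10238 loci in place of 1507 with 5087. Leaving out any other single list gave 1523 to 1635 runs. Without replicate 2 of both proteins there were 3769 runs with 13680 loci, and without replicate 1 of both 1683 with 5733. The share of runs in the outer parts stayed between 74.8% and 76.1% in all of these cases.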

How the data were processed

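Peaks came from ChIP-seq of 2 replicates of each protein, and each list was made from one sample without pooling. Per the submitters' processing notes, Bowtie 0.12.7 and MACS2 were used. The genome build, the control of each list and the treatment of duplicate or multiply mapped reads, which were not given in the sources used here, decide which repeated or duplicated stretches can hold a peak. The authors deposited for each peak a fold enrichment (a ratio), a −log10 p, a −log10 q and a score, which was not used.

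Peaks of the 4 lists were pooled and merged where they overlapped by 1 bp or more, with Python 3.11.15, pandas 2.3.3, NumPy 2.4.6 and SciPy 1.17.1. A gap is the number of bases between neighbouring loci. Merging and run finding were tested on simulated peaks. Positions are 1-based, and chromosome length is the end of the last peak in any list. Heights of different lists were compared by rank or as ratios within a list, or averaged over all 4 lists. The order of loci by strength, the choice of runs by weakest locus and the cut of 10 used raw values across lists. Lists with lower values weigh more there. Replicate 2 of GLYMA.13G317000 had the lowest median in loci in runs, at 6.05 against 8.69 to 11.03 in the other lists. One value per list was set side by side for the proteins, 2 lists each. The exact permutation test planned for these values is not used, because the choice of loci called in all lists largely fixes them.

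Runs named in the text were taken by rule: the 6 with most loci, the 3 of longest span not yet named, the 3 with the highest and the 2 with the lowest weakest locus, and the 2 of greatest contrast. The members, lists and rule were chosen with earlier results of these data known. The rule also asked for genes at named runs, which were not analysed here. Alternatives were gap limits of 2000 and 5000 bp, 4 or more loci, a q of 1e-05, an overlap of 50%, ranking by −log10 p and the omission of lists. The 187 loci with peaks in all lists on scaffolds were left out.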

Additional observations from a re-analysis of the deposited data

Results flagged for a closer look

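Scaffolds outside the 20 chromosomes, which the rule leaves out, held runs as well. Of their 187 loci with a peak in all 4 lists, 24 (12.8%) formed 8 runs on 4 of 44 scaffolds, against 15.0% of kept loci in runs on the chromosomes. They were singled out as signal in a part of the data that the comparisons do not use. Their number is above the 3 that a count of 0 allows, a low bar that a handful of runs would pass. There are no control lists to set beside them.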

How the results depend on the processing

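Membership followed the limits of the rule. With a gap limit of 2000 bp there were 919 runs with 2997 loci (8.83% of kept loci), and with 5000 bp 2590 runs with 9521 loci (28.1%), which ranked 0.829 percentile points above other kept loci. Runs of 4 or more loci numbered 412 with 1802 loci (5.31%), with 79.4% of runs in the outer parts and 61.7% led by one locus in all lists. The share of kept loci in runs was 14.4% at a q of 1e-05 or less and 11.5% with no other locus between, an alternative chosen after the data were examined. Ranked by −log10 p, 69.9% of runs had one leader. Leaving out lists gave 1523 to 3769 runs, 5140 to 13680 loci, 15.05% to 27.5% of kept loci, 68.8% to 82.5% of runs with one leader (fewer lists have to match) and rank differences of 0.129 to 1.77 points. The difference between the proteins was −3.70 to −0.065 points for the share of peaks and −0.88 to 12.9 points for rank, with a change of sign at −0.88 without GLYMA.13G317000 replicate 2; the cause was not tested. An overlap of 50% gave 1509 runs. Of 101 alternative values, 68 kept their direction and stayed within 1.5 times for counts, the Wilson interval for shares, or 1 SD for differences (over the 4 lists for loci in runs against others; the pooled replicate SD, 1.98 and 7.09 points, for the differences between the proteins, which are wide limits). Read depth, which limits all counts, is unknown.

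With the replicate number as a block, the differences between the proteins were −1.87 and 5.85 points as before and are given without a test. The labels do not say what a number marks. Over the 5087 loci in runs, rank differences between replicates 1 and 2 had a Spearman rho of 0.492 between the proteins. The loci are not replicates, and the value rests on 2 pairs of lists. What lists of the same number share was not tested.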
